A study of Mus musculus with 4 samples.

Results

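The Tmed genes encode the p24 proteins, membrane receptors that carry cargo between the endoplasmic reticulum and the Golgi. Their RNA was followed in mouse 2-cell embryos with and without siRNA against Uqcc3, which helps assemble respiratory complex III in mitochondria. The 8 genes described here (Tmed1, Tmed2, Tmed3, Tmed4, Tmed5, Tmed7, Tmed9 and Tmed10) were taken by symbol from 47445 gene identifiers, and each matched 1 identifier. The family was chosen by a measured value, the FPKM of Tmed5, which was high in controls and far lower in both siRNA libraries. The siRNA contrast of Tmed5 is therefore given as a description, with no test, and the other 7 were added by family name. The symbols Tmed6, Tmed8 and Tmed11 carry the same family prefix and are described beside them. There were 2 control libraries and 2 Uqcc3 siRNA libraries, all from C57BL/6N embryos at the late 2-cell stage, with donor females 8 weeks old. Per the labels' protocols, either siRNA was injected at 5 µM and 8 hpi, the controls received a negative-control siRNA, and only injected embryos of normal shape were taken. The controls' treatment label gives "none" instead. No source used here gives the number of embryos per library, and the labels do not tie replicates to separate matings or injection days.

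The p24 proteins span the membrane and fall into alpha, beta, gamma and delta subfamilies, whose members assemble into mixed complexes. A luminal part binds cargo such as proteins held by a glycosylphosphatidylinositol (GPI) anchor. A short tail at the C-terminal end binds the COPII coat, which buds vesicles from the endoplasmic reticulum, and the COPI coat, which returns them. Tmed4 and Tmed9 are alpha members, Tmed2 is the beta member, Tmed1, Tmed3, Tmed5, Tmed6 and Tmed7 are gamma members and Tmed10 is the delta member. Tmed10 is known to be needed for early mouse development.

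Tmed5 (ENSMUSG00000063406.11) lies on chromosome 5 from 108106366 to 108132620 in mm10, on the minus strand. GENCODE M21 gives it 6 transcripts that share their first exons and end differently, and the results below turn on their lengths. Tmed5-201 is 3800 bases long with 229 codons before the stop. The other 5 are truncated in their coding part: Tmed5-202 has 2194 bases and 126 codons, Tmed5-203 has 482 bases and 100 codons, Tmed5-204 has 1045 bases and 100 codons, Tmed5-205 has 3436 bases and 162 codons, and Tmed5-206 has 689 bases and 96 codons. The transcripts part at the end of the shared stretch of exon 2 (position 108130018). The sequences below show the 15 bases before that point in lower case and the 15 bases after it in capitals, 5′ to 3′ on the transcript, because this is where the short and long forms separate. Tmed5-205 reads the same 30 bases as Tmed5-201 and diverges further on, and Tmed5-206 reads on into the intron.
Tmed5-201: agatggtgttcatacTATAGAGACTGAAGA
Tmed5-202: agatggtgttcatacGGTTTACTGGCTGGC
Tmed5-203: agatggtgttcatacGATCTCAATCACGTA
Tmed5-204: agatggtgttcatacAAAACGAGTGCAGTG
Tmed5-206: agatggtgttcatacGTAAGTTGATTGAGA

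The gene has close neighbours on both sides. Its 3′ end runs into Mtf2, which encodes a Polycomb-associated protein and lies on the opposite strand. The 2 gene spans share 2639 bases, and 395 bases of the exons of Tmed5-204 are also exon of Mtf2. No source used here says that the counting used strand, so reads in that stretch cannot be assigned to either gene. At its 5′ end 254 bases separate the start of Tmed5 from that of Ccdc18, which is read the other way. The 250 bases upstream of the RefSeq start of Tmed5 (GRCm38.p6, chr5:108132621-108132870, minus strand) fill nearly all of this gap. They are shown because Tmed5 and Ccdc18 had opposite differences in the siRNA libraries, and they stand beside the same window of Tmed6 (chr8:107065645-107065894, minus strand), the other abundant member of the family. Both are from RefSeq, 5′ to 3′ in the direction of the gene. Capitals mark the motif GGGCGG, the motif CCAAT and the motif CCACG, each on either strand.
Tmed5: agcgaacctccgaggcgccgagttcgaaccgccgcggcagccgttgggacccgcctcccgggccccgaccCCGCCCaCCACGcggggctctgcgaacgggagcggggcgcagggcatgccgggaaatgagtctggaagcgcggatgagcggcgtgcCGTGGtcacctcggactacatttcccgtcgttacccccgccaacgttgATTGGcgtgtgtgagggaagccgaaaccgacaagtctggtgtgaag
Tmed6: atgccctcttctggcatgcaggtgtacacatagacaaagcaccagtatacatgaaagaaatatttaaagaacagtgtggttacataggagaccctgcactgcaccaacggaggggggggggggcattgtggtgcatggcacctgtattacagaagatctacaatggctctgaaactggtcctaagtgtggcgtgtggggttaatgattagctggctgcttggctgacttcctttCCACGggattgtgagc

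The Tmed5 window held 33 CpG pairs, more than 96.0% of 32851 RefSeq windows of the same length, whose median was 6. The Tmed6 window held 3. GGGCGG was found 1 time, CCAAT 1 time and CCACG 2 times in the Tmed5 window, and only CCACG, 1 time, in that of Tmed6. These letters occur in 32.7%, 33.8% and 28.3% of all windows. TATAAA, which 12.4% of windows hold, and the spaced element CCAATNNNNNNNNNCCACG, known from promoters of chaperones of the endoplasmic reticulum and held by 0.113% of windows, were in neither. A match describes the letters and is not a measured site. Of the 8 members 6 had a window in the RefSeq table.

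Depth and quality differed between the libraries. The authors deposited FPKM (fragments per kilobase of transcript per 1000000 fragments) with bounds, from which a depth of 16900000 fragments followed for control replicate 1, 19200000 for control replicate 2 and 11900000 for either siRNA library. siRNA replicate 2 stood apart: 9771 genes reached 1 FPKM there against 11818 to 12202 in the other 3, and across the genes tested its log2 values correlated with the others at 0.624 to 0.651, against 0.867 to 0.875 among the others. The target Uqcc3 had 147 and 211 FPKM in the controls and 23.7 and 19.8 FPKM with siRNA. Oocyte and 2-cell transcripts summed to 12494 and 15132 FPKM in the controls, 10556 FPKM in siRNA replicate 1 and 4463 FPKM in siRNA replicate 2, with 16 to 18 of the 19 found in the files at 1 FPKM or more in each library. Markers of cumulus and granulosa cells summed to 22.2 to 34.3 FPKM, with 1 to 4 of 14 at 1 FPKM or more in each library. Sperm markers summed to 40.4 to 58.6 FPKM, with 3 to 6 of 12 at that level. Blood markers summed to 9.75 to 36.0 FPKM, with 1 to 5 of 11 at that level. Listed at 0 in every library were Amh, Fshr and Star of the first list, Akap4 and Spata18 of the sperm markers, and Alas2, Hbb-bs and S100a9 of the blood markers. In these bulk libraries, fewer cells of a kind and less RNA per cell cannot be told apart.

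Among the gamma members, Tmed5 had the highest FPKM of the p24 genes in all 4 libraries. In control replicate 1 and siRNA replicate 1 this ranking depends on the short transcript lengths given further on. There Tmed6 exceeded it by implied fragments per 1000000, which the bounds of the FPKM give and which are not per length. On that measure, whose limit for Tmed5 is given further on, Tmed5 exceeded Tmed6 in control replicate 2 (79.9 against 71.6) and siRNA replicate 2 (92.1 against 22.0). For Tmed5, control replicate 1 had 473 FPKM and control replicate 2 had 401 FPKM, while siRNA replicate 1 had 96.95 FPKM and siRNA replicate 2 had 43.5 FPKM. Both siRNA values lay below both controls, at 22.2% and 9.97% of the control mean. Among genes reaching 1 FPKM, it exceeded 98.5% and 98.2% in the controls, 94.0% in the first siRNA library and 82.0% in the second. The control mean was 437 ± 51.3 FPKM (SD, n = 2) and the siRNA mean 70.2 ± 37.8 FPKM (SD, n = 2), a log2 difference of -2.72 in log2(FPKM + 1), with siRNA minus control.

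Tmed6, the nearest family member in abundance, has 1 annotated transcript of 871 bases. It had 134 and 97.8 FPKM in the controls and 59.8 and 29.1 FPKM with siRNA. As for Tmed5, the groups did not overlap and siRNA replicate 2 was the lowest. Its log2 difference was -1.43 (SE 0.67), which did not pass in limma (adjusted p = 0.745).

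Tmed7 had 15.4 and 7.15 FPKM in the controls, 1.82 FPKM in siRNA replicate 1 and 18.6 FPKM in siRNA replicate 2. The siRNA libraries were 10.2-fold apart, one under and one over both controls. Its log2 difference was -0.64 (SE 1.16, limma adjusted p = 0.908). A transcript annotated under Ticam2 shares 838 identical bases with Tmed7, so part of its reads may be counted there, and Ticam2 stood at 0 to 4.32 FPKM. Tmed3 was low throughout, at 3.17 and 4.38 FPKM in the controls and 1.15 and 0.339 FPKM with siRNA. These siRNA values rest on about 15.3 and 3.95 implied fragments, so the groups did not overlap but the lower values are imprecise. Tmed3 had a log2 difference of -1.48 (SE 0.86, limma adjusted p = 0.745). Tmed1 was listed at 0 or a vanishingly small value in the controls and had 2.47 and 0.175 FPKM with siRNA. It was above 1 FPKM in siRNA replicate 1 alone, so it did not enter the test, and 207 bases of it are identical to a transcript of Dnm2, which was listed at 1.66 to 8.58 FPKM.

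The alpha members Tmed4 and Tmed9 stood on opposite sides of the controls in siRNA replicate 2. Tmed4 had 27.4 and 20.8 FPKM in the controls and 12.6 and 16.1 FPKM with siRNA. Its siRNA values were close to each other and both below the controls, with a log2 difference of -0.71 (SE 0.75, limma adjusted p = 0.829). Tmed9 had 6.15 and 3.93 FPKM in the controls, 3.61 FPKM in siRNA replicate 1 and 19.8 FPKM in siRNA replicate 2. The first siRNA library lay just below the controls and the second at 393% of their mean, so its log2 difference of 0.72 (SE 1.07, limma adjusted p = 0.882) came from siRNA replicate 2. Tmed11, also an alpha member, was listed at 0 in all 4 libraries. Tmed8, outside the 4 subfamilies here, was listed at 0 in 3 libraries and at 0.0224 FPKM in siRNA replicate 2.

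Tmed2, the beta member, had 8.30 and 23.2 FPKM in the controls and 4.89 and 9.72 FPKM with siRNA. The controls differed 2.80-fold from each other and siRNA replicate 2 lay between them, so the groups overlapped (log2 difference -0.92, SE 0.94, limma adjusted p = 0.823). Its values are uncertain because Gm10698, which RefSeq lists as a pseudogene, is identical to Tmed2 over its whole 604 bases. Gm10698 was given more FPKM than Tmed2 itself in 3 libraries, with 43.9 and 103 FPKM in the controls and 35.9 FPKM in siRNA replicate 1, and only 2.53 FPKM in siRNA replicate 2. Summed, Tmed2 and Gm10698 had 52.2 and 127 FPKM in the controls and 40.8 and 12.3 FPKM with siRNA, and on this sum the groups did not overlap. No source used here says how the shared reads were divided.

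Tmed10, the delta member, had 15.1 and 8.51 FPKM in the controls and 7.16 and 2.42 FPKM with siRNA. Both siRNA values lay below both controls, the second by far more than the first, with a log2 difference of -1.23 (SE 0.98, limma adjusted p = 0.785). Tmed10-ps is 99.4% identical to Tmed10 over 660 bases and is not among the gene identifiers here. How reads shared with it were counted was not tested.

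**Figure D1:**
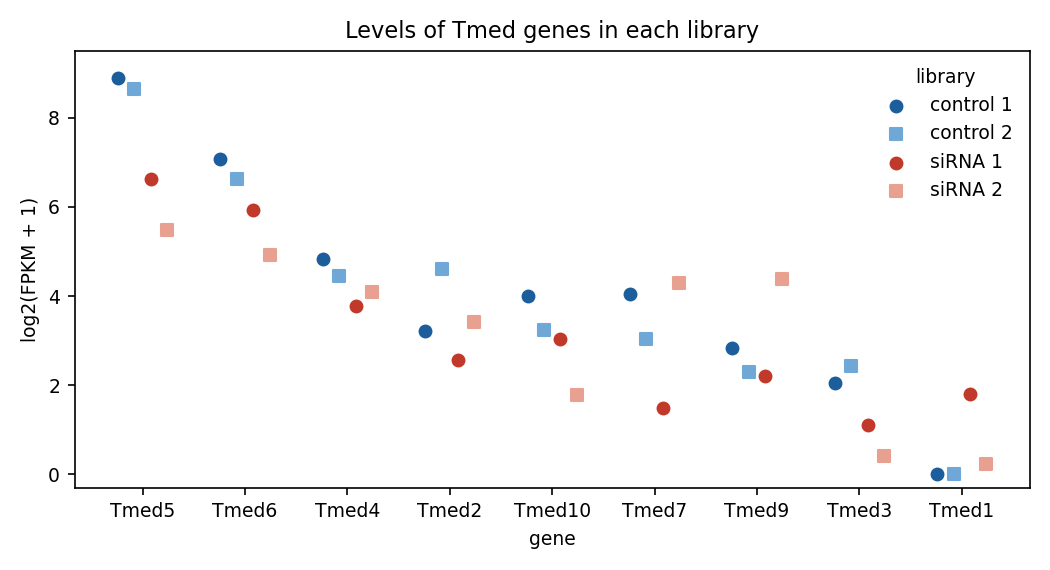
Level of each Tmed gene in each library as log2(FPKM + 1), with circles and squares for replicates 1 and 2 of the controls (blue) and of the siRNA libraries (red). Tmed5 is highest in every library, Tmed7 and Tmed9 have siRNA replicates on both sides of the controls, and Tmed1 is near 0 except in siRNA replicate 1.

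By control level the order was Tmed5, Tmed6, Tmed4, Tmed2, Tmed10, Tmed7, Tmed9, Tmed3 and Tmed1. Tmed5 and Tmed6 were each clear of the next gene in both controls. The control values of Tmed4 and Tmed2 overlapped, as did those of Tmed2, Tmed10 and Tmed7, and those of Tmed9 and Tmed3. Tmed5 alone made up 86.2% and 85.5% of the summed FPKM of the 8 members in the controls, but 74.2% in the first siRNA library and 39.3% in the second. Of the summed implied fragments, which are not per length, it made up 42.4% and 43.0% in the controls and 37.9% and 49.0% with siRNA. The lower FPKM share with siRNA was thus not seen on that measure in siRNA replicate 2. The members have several transcripts, so these shares carry the limit on implied numbers given further on. The summed FPKM of the 8 members was 549 and 469 in the controls and 131 and 111 with siRNA. Without Tmed5 it was 75.6 and 68.0 in the controls, 33.7 in the first siRNA library and 67.2 in the second. The siRNA libraries thus differed in this remainder: the first stood well under both controls and the second within 1 FPKM of control replicate 2. In siRNA replicate 2, Tmed9 (17.9%) and Tmed7 (16.8%) held the next largest shares of this sum.

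By subfamily, with Tmed6 counted among the gamma members, the gamma sum was 625 and 509.9 FPKM in the controls and 162 and 91.8 FPKM with siRNA. The alpha sum was 33.6 and 24.8 FPKM in the controls, 16.2 FPKM in the first siRNA library and 35.9 FPKM in the second. The gamma members thus outweighed the other subfamilies in every library.

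Of the 8 members 7 passed the filter of at least 1 FPKM in at least 2 libraries. In limma 0 of the 6 tested members other than Tmed5 passed an adjusted p of 0.05, and 0 had an unadjusted p under 0.05 (smallest 0.122). Of all 12390 genes tested 0% passed (smallest adjusted p = 0.564), with 738 at an unadjusted p under 0.05. An exact permutation test of 2 libraries against 2 cannot give a two-sided p below 0.333. In 4 of the 7 tested members (Tmed3, Tmed4, Tmed5 and Tmed10) the 2 siRNA libraries were lower than either control, and 0 were higher in this sense. Of all genes tested 30% lay below and 8.6% above. Tmed5 was chosen for this pattern, so 3 of the 6 others are the count to set beside that share, and nothing particular to the family is read from it. The count of 4, which includes Tmed5, depended on scaling. It was 3 after rescaling to TPM, where Tmed4 left it and only Tmed3 and Tmed10 remained of the others. It was also 3 after median-of-ratios scaling, quantile normalization or cyclic loess, where Tmed10 left it and Tmed3 and Tmed4 remained. In these settings 18.5% to 20.6% of all genes lay below. The median log2 difference of the 6 others was -0.81, against -0.39 for all genes tested. Those 4 scalings brought the median of all genes to between -0.073 and 0.034.

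Taken library by library, siRNA replicate 1 was the more uniform. Of the 6 tested members other than Tmed5, 6 lay below both controls in it, where 48.3% of all genes tested did. In siRNA replicate 2, 3 of the 6 lay below and 2 (Tmed7 and Tmed9) above both controls, where 50.6% and 31.99% of all genes did. The median log2 difference of the 6 members other than Tmed5 was -1.01 in the first siRNA library and -0.51 in the second, beside -0.30 and -0.57 for all genes tested. The difference between the 2 siRNA libraries was not tested. With siRNA replicate 1 left out, 11.9% of all genes passed in limma (9.68% of all genes with a lower value), and 0 of the 6 members did.

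**Figure D2:**
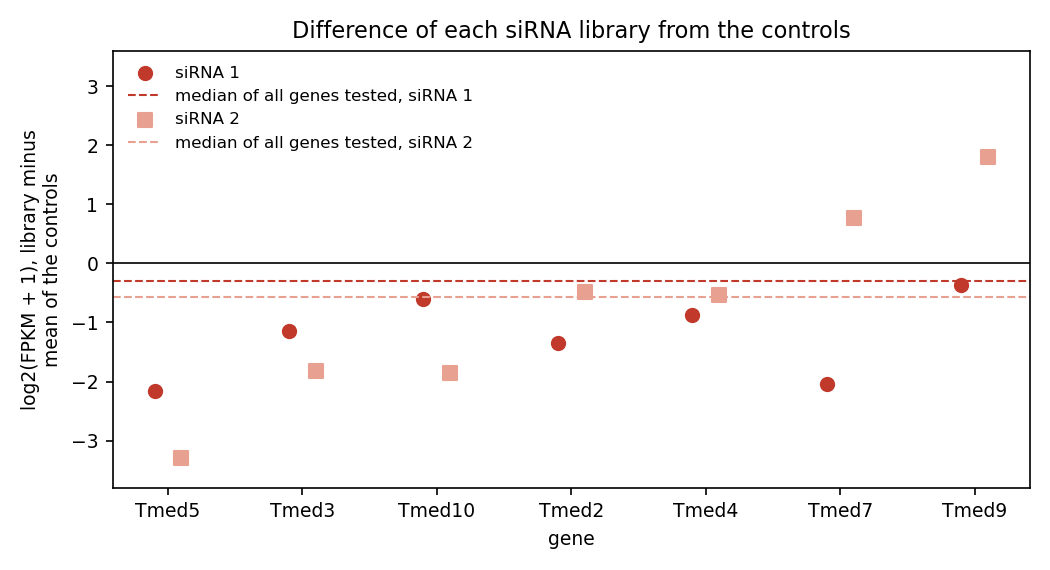
Difference of siRNA replicate 1 (circles) and siRNA replicate 2 (squares) from the mean of the controls in log2(FPKM + 1) for the 7 tested members, with dashed lines at the median of all genes tested (-0.30 and -0.57). All 7 circles lie below 0, while the squares run from -3.29 for Tmed5 to 1.81 for Tmed9.

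The FPKM of Tmed5 and the fragments behind it were ordered differently across the libraries. The bounds beside each FPKM value imply a number of fragments, since they lie 2 errors from it. For Tmed5 the distance to the upper bound was 5.05% and 5.10% of the value in the controls, 9.82% in the first siRNA library and 6.03% in the second. These widths correspond to 1568 and 1537 fragments in the controls, 415 in the first siRNA library and 1100.1 in the second. As fragments per 1000000 these are 92.6 and 79.9 for the controls, 34.9 for siRNA replicate 1 and 92.1 for siRNA replicate 2. On this measure siRNA replicate 2 lay within the range of the controls, whereas its FPKM was 10.03-fold under the control mean, and siRNA replicate 1 was low on both. Tmed6, with 1 transcript, behaved otherwise: 102 and 71.6 implied fragments per 1000000 in the controls and 43.1 and 22.0 with siRNA, in the order of its FPKM.

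Fragments and FPKM together give the transcript length that the FPKM assumed. For Tmed5 it was 196 and 199.5 bases in the controls, 359.6 bases in the first siRNA library and 2115 bases in the second. The first 3 values lie below the annotated length of the shortest transcript, Tmed5-203, and the last lies near Tmed5-202 and above 3 of the shorter forms. These comparisons are approximate, as implied lengths also fell short in genes with 1 transcript. Their median there was 89.6% to 92.0% of the annotated length across libraries. The share was smaller in some short genes with 1 transcript. Gm10698, of 604 bases, had implied lengths of 442 to 488 bases, and Uqcc3, of 821 bases, had 675 to 729 bases. The value of siRNA replicate 1 is therefore not read as shorter than Tmed5-203. For Tmed6 the length was 721 to 763 bases in all 4 libraries, and for Tmed10 3501 to 3577 bases, Tmed9 1304 to 1355 bases and Tmed7 1114 to 1156 bases. The siRNA replicate 2 length over the control mean was 10.7 for Tmed5, and between 0.997 and 1.22 for Tmed2, Tmed4, Tmed9, Tmed10 and Tmed6. Of 4286 tested genes with several transcripts and at least 50 implied fragments in every library, 3 (0.0700%) had a ratio at or above that of Tmed5, and 95% were below 3.19. Among 694 genes with 1 transcript it was 0, and 95% were below 1.23. The ratio is computed in part from the FPKM values by which Tmed5 was chosen. Its place among these genes is therefore a description and no test.

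The implied numbers have a limit that matters here. Where the bounds hold counting error alone, implied fragments should be whole numbers. Among values of at most 30, 68.1% to 77.0% were whole within 0.05 in genes with 1 transcript, but 16.9% to 21.8% in genes with several. The bounds of the latter may also hold the error of splitting reads between transcripts, so implied fragments and lengths are read there as lower limits. This holds for Tmed5 in each library separately, so the true fragments and length in the controls may be larger than given, and the ratios between libraries are not bounded. Only 0.327% to 0.420% of the 4286 genes had an implied length over 1.1 times that of their longest transcript. Tmed10 was among these in every library, at 3501 to 3577 bases against a longest transcript of 3181 bases. Its implied lengths can therefore not be read as lower limits in this annotation. Gene-level tables do not say which of the 6 Tmed5 transcripts was present in a library, and this was not tested. This measure was examined after the values were seen.

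**Figure D3:**
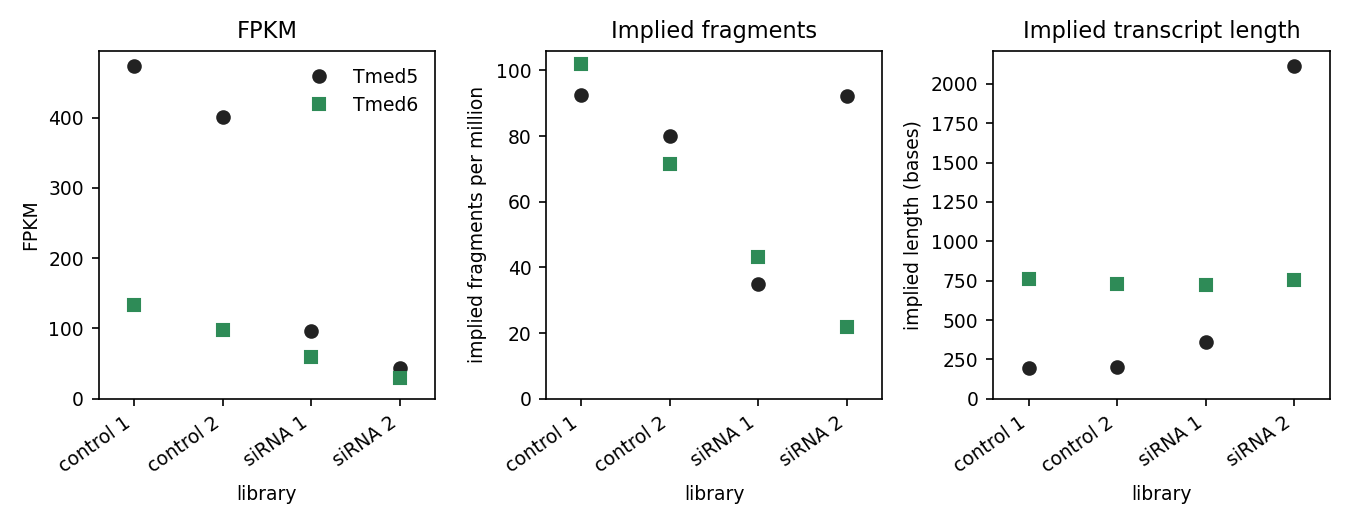
FPKM, implied fragments per 1000000 and implied transcript length in bases for Tmed5 (black circles) and Tmed6 (green squares) in each of the 4 libraries. In siRNA replicate 2 Tmed5 has the lowest FPKM (43.5) but 92.1 implied fragments per 1000000 and an implied length of 2115 bases, while the implied length of Tmed6 stays between 721 and 763 bases.

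The neighbours of Tmed5 were set beside it. Mtf2, whose exons overlap Tmed5-204, had 539 and 350 FPKM in the controls and 227 and 206 FPKM with siRNA, so its groups did not overlap either (log2 difference -1.002, SE 0.59, limma adjusted p = 0.745). Its implied fragments per 1000000 were 170.01 and 134.5 in the controls and 108 and 134.98 with siRNA, and overlapped. Ccdc18, read from the other side of the shared upstream window, had 7.25 and 10.5 FPKM in the controls and 12.2 and 16.9 FPKM with siRNA. Both siRNA values of Ccdc18 lay above both controls (log2 difference 0.66, SE 0.84, limma adjusted p = 0.859), although its implied fragments per 1000000 were 9.43 and 7.85 in the controls and 6.90 and 8.23 with siRNA, and overlapped. The part of Mtf2 reads in the values of Tmed5 was not tested.

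The machinery that p24 proteins work with was taken from 7 lists, and in limma 0 members of any list passed over all genes in either direction. Set beside the 30% of all genes with both siRNA values below both controls, the counts differed by list. Each list's median minus that of all genes changed sign under at least 1 of 14 alternatives, so no list is placed above or below all genes by its median. The other cargo receptors and retrieval factors had 9 of 16 tested members below and 0 above, with a median log2 difference of -0.66. That median was -1.12 without control replicate 1 and -0.35 to -0.23 under the 4 scalings, and without control replicate 2 it differed from that of all genes by 0.0081. Bcap31, an export receptor of the endoplasmic reticulum, had 369 and 858 FPKM in the controls and 365 and 71.6 FPKM with siRNA. Ergic2 and Ergic3 cycle between the endoplasmic reticulum and the Golgi. Ergic2 had 321 and 327 FPKM in the controls and 196 and 44.0 FPKM with siRNA. Ergic3 had 27.4 and 27.6 FPKM against 9.73 and 0.722 FPKM, and Cnih4, a receptor of the cornichon family, had 180 and 118 FPKM against 116 and 29.0 FPKM. In each of these 4 genes siRNA replicate 2 was the lowest library, and siRNA replicate 1 lay just below the lower control in Bcap31 and Cnih4. Bcap29 had 27.5 and 23.7 FPKM in the controls, 21.1 FPKM in siRNA replicate 1 and 0.286 FPKM in siRNA replicate 2. Its log2 difference of -2.31 (limma adjusted p = 0.745) came mostly from siRNA replicate 2.

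Genes that make and remodel the GPI anchor, the signal that p24 complexes read on cargo, had 12 of 23 tested members below both controls and 2 above, with a median log2 difference of -0.70 (-0.37 to -0.22 under the 4 scalings). Pigk, the catalytic subunit of the transamidase that attaches the anchor, had 6.72 and 20.2 FPKM in the controls and 1.80 and 0.0816 FPKM with siRNA. Pigu, another subunit of that enzyme, had 9.64 and 8.475 FPKM against 2.23 and 0.105 FPKM. Both were lower in both siRNA libraries, most of all in the second, where the values rest on less than 1 implied fragment. The abundant Pigx had 160 and 147 FPKM against 93.5 and 94.1 FPKM, and Pigyl and Pigf had log2 differences of -1.18 and 0.29.

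The coats were the lists with the smallest shares below both controls. COPII and exit-site genes had 3 of 17 tested members below and 2 above. Their median log2 difference was 0.21, although it was -0.34 and -0.11 in siRNA replicates 1 and 2 taken alone. Sar1b, the GTPase that starts the COPII coat, had 68.5 and 77.9 FPKM in the controls, 59.1 FPKM in siRNA replicate 1 and 4.22 FPKM in siRNA replicate 2. Tfg and Sec23b, an organizer of exit sites and an inner coat subunit, had log2 differences of -0.90 and -0.42. The cargo-binding coat subunits Sec24d and Sec24a had log2 differences of -1.45 and 0.96. Sec24d had 3.73 and 7.11 FPKM in the controls, 4.14 FPKM in siRNA replicate 1 and 0 FPKM in siRNA replicate 2. COPI and Arf genes had 3 of 15 tested members below and 2 above, with a median of -0.17. Arf1, the GTPase that recruits COPI, had 53.9 and 55.4 FPKM in the controls and 43.1 and 87.4 FPKM with siRNA, on both sides of the controls. The coat subunits Copz1, Arcn1 and Copg2 had log2 differences of -1.03, -1.12 and -0.31, and Arf5 had 1.65. Arf5 had 4.98 and 2.83 FPKM in the controls, 5.04 FPKM in siRNA replicate 1 and 36.2 FPKM in siRNA replicate 2.

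The remaining lists were near the background. SNAREs, tethers and matrix proteins had 8 of 27 tested members below and 3 above, with a median log2 difference of -0.49. Gosr1, a Golgi SNARE, had 110 and 81.0 FPKM in the controls and 49.98 and 0.571 FPKM with siRNA. The tethering subunits Trappc13 and Trappc4 had log2 differences of -1.83 and -0.43, and the small GTPase Rab2a had 1.24. Trappc1, another tethering subunit, had 88.5 and 144 FPKM in the controls, 153 FPKM in siRNA replicate 1 and 1.67 FPKM in siRNA replicate 2. Its log2 difference of -2.49 thus came from siRNA replicate 2. Translocon and signal peptidase genes, which bring cargo into the endoplasmic reticulum, had 8 of 23 below and 2 above, with a median of -0.44. Among them Sec11a, the catalytic subunit of signal peptidase, had 464 and 409 FPKM against 300.5 and 190 FPKM. The signal recognition particle genes Srp14, Srp9 and Srp19 had log2 differences of -0.44, -0.95 and -1.13, and Spcs2 had -1.31.

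Chaperones and genes of the unfolded protein response had 7 of 22 tested members below and 0 above. Their median log2 difference was 0.19, with -0.77 for the first siRNA library and 0.63 for the second. Manf, a secreted factor of the stressed endoplasmic reticulum, had 383 and 473 FPKM in the controls and 180 and 31.4 FPKM with siRNA. Dnajb9, a co-chaperone induced by that stress, had 789 and 814 FPKM against 412 and 210 FPKM. Pdia4 had 45.1 and 45.3 FPKM against 10.2 and 3.07 FPKM. In these 3 both siRNA libraries lay below both controls, with siRNA replicate 2 the lower, and none passed in limma (adjusted p = 0.745 each). Pdia3, another disulfide isomerase, had a log2 difference of -1.26. Xbp1, a transcription factor of this response, had 1.63 and 2.21 FPKM in the controls and 0.524 and 0.291 FPKM with siRNA. Its log2 difference was -1.05, but it passed the filter of 1 FPKM through the controls alone, so this is a description. The genes named from this list were all lower with siRNA, although the list's median was 0.19.

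**Figure D4:**
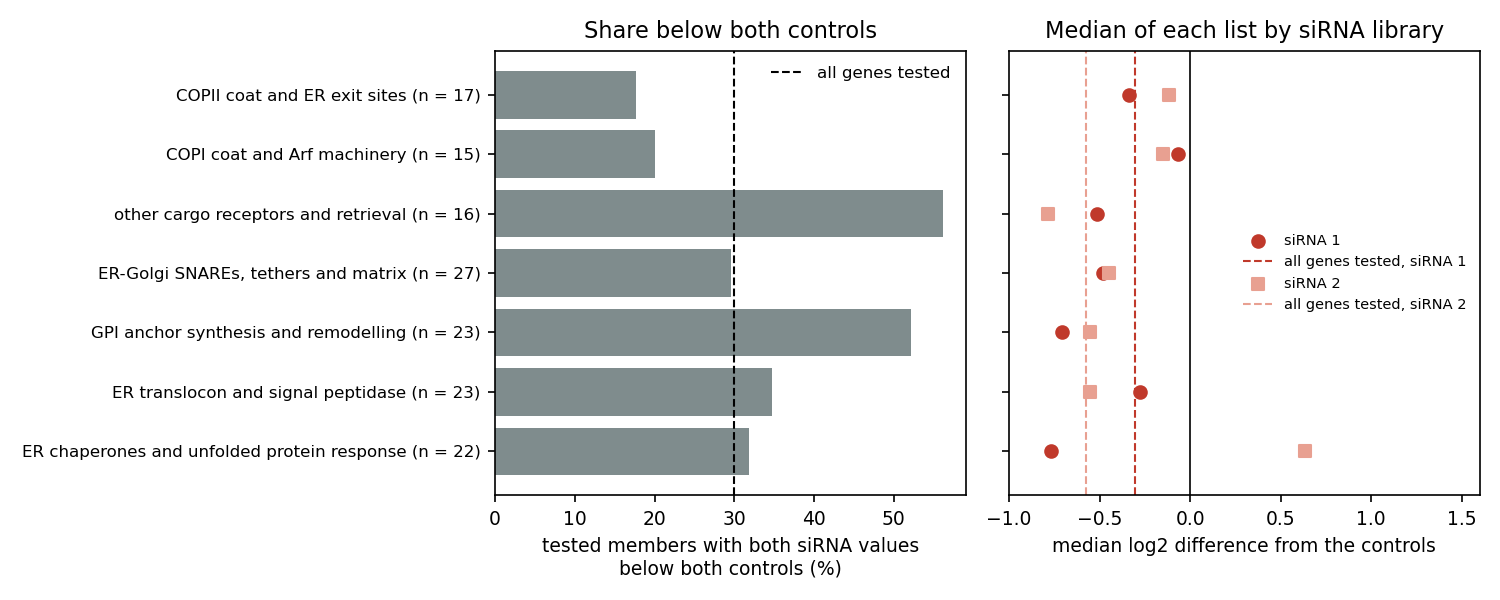
Left, share of tested members of each list with both siRNA values below both controls (bars, in percent), with a dashed line at the 30% of all genes tested; right, median log2 difference from the controls for each list in siRNA replicate 1 (circles) and siRNA replicate 2 (squares), with dashed lines at the medians of all genes. Other cargo receptors (9 of 16) and GPI anchor genes (12 of 23) have the longest bars, and for the chaperones the libraries lie on opposite sides of 0.

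The genes whose level and pattern over the 4 libraries were nearest to Tmed5, by Euclidean distance in log2(FPKM + 1) and leaving out predicted-gene names, were Timm17a (0.518), Ctsc (0.757), Mdh2 (0.944), Tmcc1 (1.02) and Txndc9 (1.03). Timm17a, a subunit of the mitochondrial import channel, had 442 and 409 FPKM in the controls and 114 and 31.5 FPKM with siRNA. Mdh2, the mitochondrial malate dehydrogenase, had 414 and 330 FPKM against 102 and 80.9 FPKM. All 5 had both siRNA FPKM values below both controls, which the choice by likeness to Tmed5 fixes in large part. By implied fragments per 1000000, Tmcc1 had 129.5 and 120.7 in the controls and 131.5 and 83.6 with siRNA. On that measure its siRNA replicate 1 lay above both controls, while the other genes kept both siRNA values below. In all 5 the implied length was longer in either siRNA library than in either control. They have several transcripts, so the limit on implied numbers holds here too. The likeness rests on 4 libraries.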

How the data were processed

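Each library came as a table of FPKM per gene with a lower and an upper bound, deposited by the authors. Tools listed in the submitters' processing notes are Cufflinks 2.2.1, Cuffdiff 2.2.1, STAR 2.7.3a, Trim Galore 0.6.5 and SAMtools 1.7, with mm10 as the genome. No source used here gives the annotation release. Libraries were grouped by treatment label, and replicates were numbered in accession order. Rows of one gene identifier were summed, and 99.1% of identifiers matched GENCODE M21, which gave transcripts and lengths.

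Testing took genes that reached 1 FPKM in 2 libraries or more, leaving out 2 with a failed estimate. limma 3.58.1 (R 4.3.3) was fitted to log2(FPKM + 1) with an abundance trend, two-sided, with Benjamini-Hochberg adjustment over all 12390 genes and a threshold of 0.05. This scale understates differences of low genes. Its p-values reflect only how these libraries vary, possibly for technical reasons. The fitting code was also checked on simulated data, and every value given comes from the deposited libraries. The 14 alternatives changed the pseudocount, filter, scaling, trend or length treatment, or left out a library.

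The members and lists were chosen with earlier results of these data known. Named are the members, the other Tmed genes, Uqcc3, the 5 genes nearest to Tmed5, and in each list the 3 most abundant in controls and 2 others with the smallest unadjusted p. Mtf2, Ccdc18, Gm10698, Ticam2, Dnm2 and Tmed10-ps were added as neighbours or copies (blastn, at least 90% identity over 200 bases or more). Further matches by this rule were left out, among them Rxylt1 and Gm7318 for Tmed2. Implied fragments are (2 × FPKM / (upper bound − FPKM)) squared. Depth is the median it gives over genes with 1 transcript of at least 3000 bases and at least 10 implied fragments. Both treat the bounds as counting error alone, which may not hold for genes with several transcripts. Neither counts molecules, as PCR copies are not separate molecules.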

Additional observations from a re-analysis of the deposited data

How the results depend on the processing

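Over 14 alternatives the 6 tested members other than Tmed5 stayed short of the threshold in limma, with adjusted p from 0.122 to 1.00. Leaving out single libraries gave 0 to 1477 genes past the threshold, and the 1477 (11.9% of those tested) came without siRNA replicate 1. The lone library is there assumed to vary like the controls. Leaving out libraries gave 4 to 7 members, Tmed5 included, below the controls, with 7 of 7 without siRNA replicate 2, where 48.3% of all genes lay below (41.9% to 50.5% over these settings). Tmed7 had log2 differences from -2.04 to 0.76 and Tmed9 from -0.36 to 1.81 when single libraries were left out. Tmed7 was positive without siRNA replicate 1 and Tmed9 negative without siRNA replicate 2. Tmed2, Tmed3, Tmed4 and Tmed10 kept a negative sign under every alternative run on them, and Tmed3 fell out of the test at a filter of 5 FPKM. The log2 difference of Tmed5 ranged from -3.29 to -1.94, the last under cyclic loess. The labels carry no replicate numbers, but the names of the deposited files carry some, which nothing ties to a shared litter or day. A fit with these as a replicate block, chosen after seeing the data, gave 1 gene past the threshold (Snord47, higher with siRNA) and no member, and deviations of same-numbered libraries correlated at 0.0578 across genes. Depth limits Tmed1 and Tmed3 most: siRNA replicate 2 gave them 2.25 and 3.95 implied fragments.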
